A study of Homo sapiens with 18 samples.

Results

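The genes of DNA replication and of mitosis were followed across 6 lines of HEK cells, an established human embryonic kidney line. The list held 56 genes, 28 that act in or before S phase, from MCM2 to DTL, and 28 of mitosis, from CDK1 to DLGAP5. A gene was a member where a probe set of the array carried its symbol, and 1 probe set was used per gene, the one with the highest mean over the 18 arrays. This gave 48 members, 26 of S phase and 22 of mitosis, among 14884 genes with a symbol. All 48 also passed the filter on low values, which left 9686 genes tested. POLA1 and HELLS of the S-phase list, and CENPF, NUF2, UBE2C, TPX2, ANLN and DLGAP5 of the mitosis list, had no probe set with their symbol and were not analysed here.

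The lines wild type for ATXN1L were the parental cells, N4 and N8, the latter being CRISPR controls, and those labelled ATXN1L-KO were A10, A30 and B21. Per the labels, edited cells were selected in puromycin and grown from single colonies, so each of A10, A30 and B21 is 1 clone, and all lines were grown in DMEM with fetal bovine serum. Each line gave 3 arrays of biological triplicates, numbered 1 to 3. ATXN1L binds CIC, a transcriptional repressor, and the comparison asks how expression differs where ATXN1L was edited. ATXN1L itself read 7.16 ± 0.05 (log2, SD, n = 3 lines) in the wild-type lines and 7.41 ± 0.06 in the KO-labelled lines, a difference that did not pass (limma adjusted p = 0.468). The labels do not say which part of ATXN1L was edited, so this reading does not check them.

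Before S phase, CDC6 and CDT1 load the MCM helicase on replication origins, cyclin E and its kinase fire them, and CDC45 and the GINS complex turn the helicase on. Many of these genes are targets of E2F transcription factors, which RB family proteins hold back in G1. Mitosis genes are transcribed later, in G2, and their timing is largely controlled by the DREAM and MuvB complexes. These bind a short promoter element called the CHR, often with NF-Y bound at CCAAT boxes nearby. HEK cells were transformed with adenovirus DNA, whose early proteins bind the RB family. Array values are population averages, and in them a larger share of cells in a phase and more RNA per cell cannot be told apart.

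The promoters of both sets differ in the motif letters they hold. RefSeq windows (GRCh38.p14) from 250 bases before to 50 bases after each start were found for 46 of the 56 listed genes, 23 in each set. Letters matching an E2F site (TTTCGCGC, TTTGGCGC, TTTCCCGC or TTTGCCGC, on either strand) were present in 17 of 23 S-phase genes (73.9%) and in 2 of 23 mitosis genes (8.7%), against 3.99% of 27305 genes. Letters of the CHR (TTTGAA, on either strand) were present in 2 of 23 S-phase genes (8.7%) and 19 of 23 mitosis genes (82.6%), against 18.2% of all genes. A CCAAT box (CCAAT, either strand) was found in 73.9% of the S-phase genes and 78.3% of the mitosis genes, against 39.7% of all genes. The CIC site (TGAATGAA or TCAATGAA, either strand) was in 0 of 23 S-phase and 0 of 23 mitosis windows, against 2.87% of all genes. No motif contains another, and a match is a description of letters, not of binding. WDR76, MCM4, MCM5, CCNE2, E2F8, AURKA, TTK, BIRC5, TPX2 and UBE2C had no entry.

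The sequences below are the 80 bases before the start of 5 S-phase members that differed between lines or replicates, shown for the E2F letters, in capitals. They lie at chr7:100101398-100101477 (minus strand, MCM7), chr20:5126623-5126702 (minus, PCNA), chr16:88803709-88803788 (plus, CDT1), chr16:85688955-85689034 (minus, GINS2) and chr20:33686386-33686465 (minus, E2F1).
MCM7: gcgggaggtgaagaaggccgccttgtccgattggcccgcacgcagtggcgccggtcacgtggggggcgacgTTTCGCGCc
PCNA: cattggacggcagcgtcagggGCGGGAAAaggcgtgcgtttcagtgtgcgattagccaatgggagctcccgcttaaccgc
CDT1: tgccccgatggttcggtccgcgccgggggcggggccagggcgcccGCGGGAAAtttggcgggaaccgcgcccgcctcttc
GINS2: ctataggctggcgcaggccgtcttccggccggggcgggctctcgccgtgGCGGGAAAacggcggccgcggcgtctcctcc
E2F1: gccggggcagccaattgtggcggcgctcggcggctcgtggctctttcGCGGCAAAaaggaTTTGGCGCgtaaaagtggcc

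The same 80 bases are shown for 5 mitosis members that are named in the comparisons between lines or replicates and that carry the CHR letters, in capitals. CCNB1, BUB1 and AURKB, which are also named there, had no CHR letters in their windows. Of the 6 members lower in replicate 1 that had a window, 3 held the CHR letters (50%). They lie on the plus strand at chr15:59105066-59105145 (CCNB2), chr16:23678809-23678888 (PLK1), chr1:43358901-43358980 (CDC20), chr1:37692436-37692515 (CDCA8) and chr15:69414269-69414348 (KIF23).
CCNB2: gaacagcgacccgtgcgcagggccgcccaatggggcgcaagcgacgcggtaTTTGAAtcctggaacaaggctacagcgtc
PLK1: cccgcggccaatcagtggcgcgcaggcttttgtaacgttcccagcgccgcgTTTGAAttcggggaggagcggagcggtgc
CDC20: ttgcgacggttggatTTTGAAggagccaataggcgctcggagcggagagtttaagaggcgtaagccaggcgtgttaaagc
CDCA8: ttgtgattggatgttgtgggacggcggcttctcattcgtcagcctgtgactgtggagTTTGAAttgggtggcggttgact
KIF23: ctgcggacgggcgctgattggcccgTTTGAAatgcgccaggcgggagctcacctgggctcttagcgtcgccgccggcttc

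Array medians lay between 5.09 and 5.18 (log2), and arrays correlated at r = 0.978 to 0.994 within a line and 0.957 to 0.990 between lines, across genes, which are not independent. Of 7 kidney development markers with a symbol, 6 passed the filter on low values (WT1, LHX1, EMX2, SALL1, SIX2 and PAX2). Passing markers of other cell types were 1 of 3 neuronal (MAP2), 2 of 4 leukocyte (CD68 and SPI1), 1 of 2 fibroblast (LUM), 0 of 3 endothelial and 0 of 4 keratinocyte markers. The filter asked for 5.6 on at least 3 arrays, and the 18-array means of PAX2 (5.55) and LUM (5.33) lay below it. Replicate 1 of A10 stood apart from the other A10 arrays at CCNE1, E2F1 and GINS2, as given with those genes.

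Every member was well expressed in every line, and the lines differed little. Member values ran from 7.50 to 11.35 (log2), while the filter stood at 5.6. The range of the 6 line means had a median of 0.31 over the S-phase members and 0.25 over the mitosis members, against 0.33 over all genes tested. The SD between arrays of a line had a median of 0.073 over the S-phase members, 0.087 over the mitosis members and 0.12 over all genes tested. The median level was 9.27 and 9.40 in these sets against 7.16 over all genes tested. Whether the level accounts for the smaller ranges and SDs was not tested. CCNB2 had the widest range (0.63), followed among mitosis members by CENPA (0.48) and NDC80 (0.42). Among S-phase members E2F1 (0.51), CDC45 (0.47) and MCM2 (0.45) were widest. The narrowest were TYMS (0.063), the thymidylate synthase, FEN1 (0.14) and MCM3 (0.14), and in mitosis KIF20B (0.14), KIF11 (0.14) and MKI67 (0.15), the proliferation marker Ki-67.

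**Figure D1:**
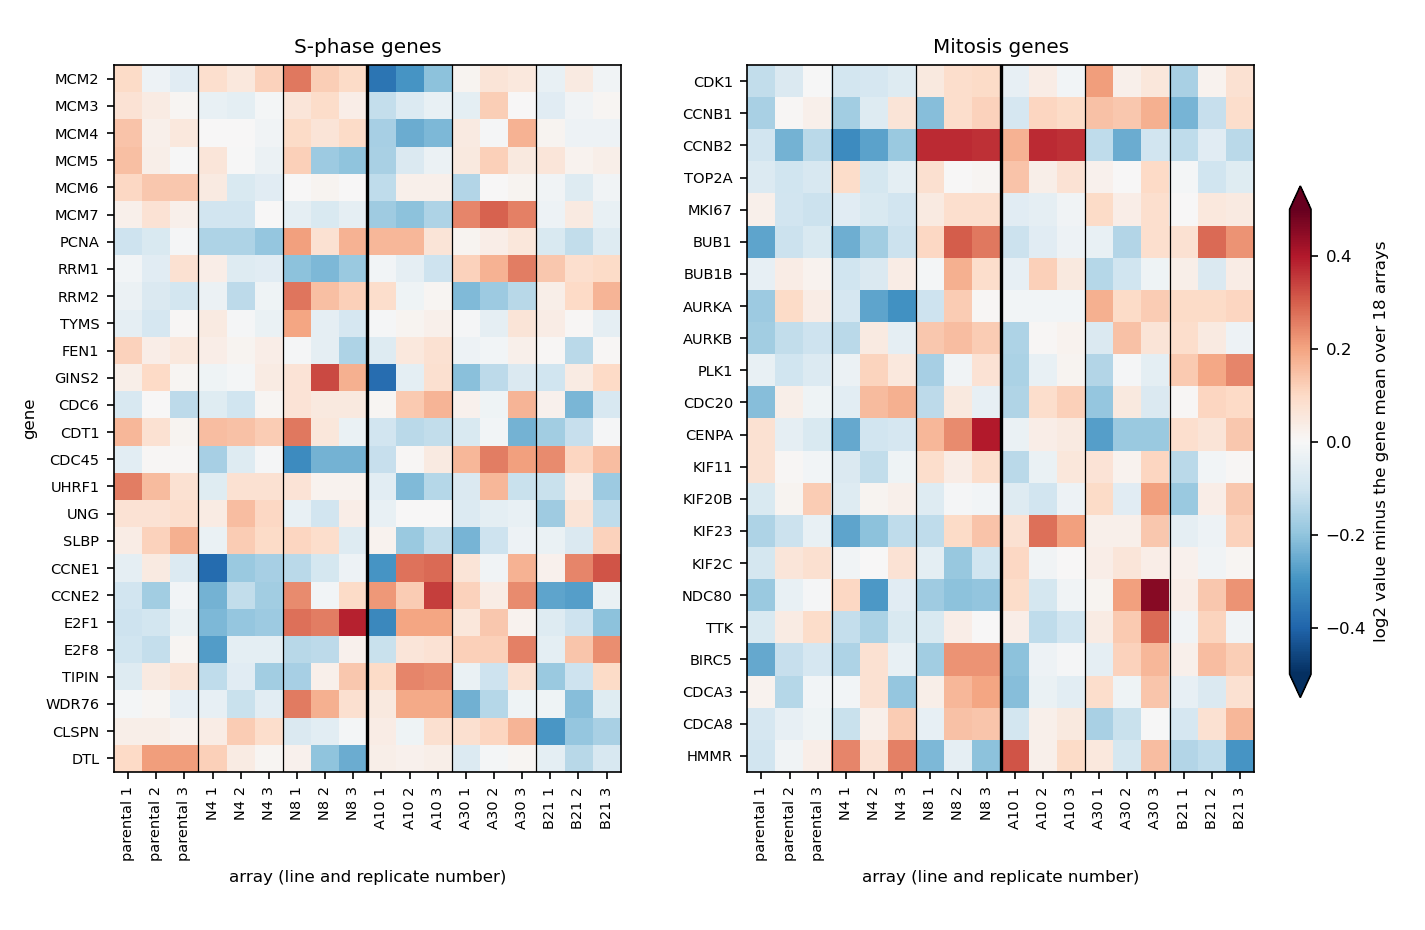
Log2 value of each member minus its mean over the 18 arrays (colour, cut at 0.5 either way), by array (columns, line and replicate number) for the S-phase genes (left) and mitosis genes (right); the thick line divides wild-type from KO-labelled lines. CCNB2 is high in all 3 arrays of N8, MCM2 is low in all 3 arrays of A10, and no column is high or low in all of its genes.

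Between the genotypes no member passed. With the 6 line means as the unit, 0 of 48 members and 0 of 9686 genes had a limma Benjamini-Hochberg adjusted p under 0.05 (background 0%). At an unadjusted p under 0.05 there were 4 of 26 S-phase members and 1 of 22 mitosis members, 5 of 48 in all, against 9.67% of all genes. With single arrays and the line as a random block, 0 members and 75 genes passed. The S-phase members had a median difference (KO-labelled minus wild-type) of −0.028, with 11 above and 15 below 0. The mitosis members had a median of 0.042, with 16 above and 6 below 0, and all genes tested −0.002.

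CDT1, the licensing factor that brings the MCM helicase to origins, had the smallest p among the S-phase members on the lower side. Its line means were 8.45, 8.51 and 8.46 in the parental, N4 and N8 cells and 8.25, 8.26 and 8.27 in A10, A30 and B21. The genotypes did not overlap in their line means, and the 3 lines of each lay within 0.1 of each other. The difference was −0.22 ± 0.074 (log2, SE, 3 lines against 3), with a limma adjusted p of 0.468. CCNE1, encoding cyclin E1, differed by 0.24 ± 0.090 (limma adjusted p = 0.472), CDC45 by 0.24 ± 0.10 (0.509) and E2F8, a repressor of the E2F family, by 0.19 ± 0.080 (0.514). On the lower side UHRF1, which maintains DNA methylation at forks, stood at −0.15 ± 0.083 and SLBP, which binds histone mRNA, at −0.14 ± 0.079.

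NDC80, a kinetochore protein that grips microtubules, differed most among the mitosis members, by 0.23 ± 0.089 (limma adjusted p = 0.475), from 8.33 ± 0.066 in the wild-type lines to 8.56 ± 0.11 in the KO-labelled lines (SD, n = 3 lines). KIF23, a kinesin of the central spindle, stood at 0.17 ± 0.093 and AURKA, the spindle pole kinase, at 0.15 ± 0.092. Below 0, CENPA (−0.070 ± 0.126), BUB1B (−0.031 ± 0.082) and CDCA8 (−0.030 ± 0.083) all had differences smaller than their standard errors. These 3 changed sign when 1 line was left out, to 0.045, 0.004 and 0.003 without N8 and to 0.020, 0.005 and 0.009 without A30. Line means of the genotypes did not overlap for 5 of 26 S-phase members (19.2%), CCNE1 and E2F8 above (7.37% of all genes) and CDT1, UHRF1 and SLBP below (7.22%). Among mitosis members only NDC80 separated, 1 of 22 (4.55%), against 14.6% of all genes.

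**Figure D2:**
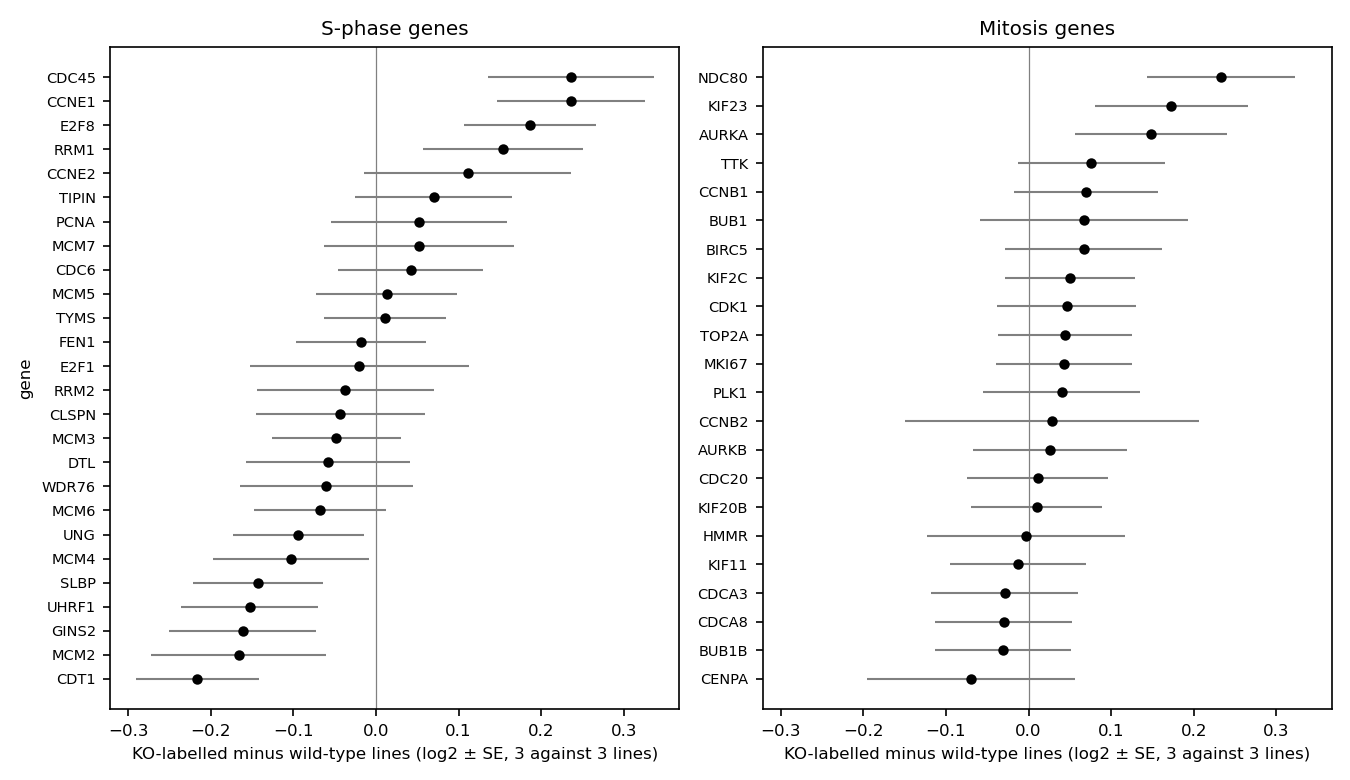
Difference of each member between the KO-labelled and the wild-type lines (points, log2, with the limma SE as bars, 3 line means against 3), ordered by size within the S-phase genes (left) and the mitosis genes (right). The differences ran from −0.22 (CDT1) to 0.24 (CDC45 and CCNE1), and none passed after adjustment.

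Single lines differed from each other and from their references. An F test with limma over single arrays called 21 of 48 members among the 6 lines, 13 of S phase (50% of 26) and 8 of mitosis (36.4% of 22), where 43.5% of all genes passed. Among the KO-labelled lines 15 members passed (25.8% of all genes), and among the wild-type lines 11 (16.1% of all genes). Each KO-labelled line was then set against the mean of the wild-type lines, which these comparisons share. A10 differed at 7 members (8.4% of all genes passed), 3 higher (3.84%) and 4 lower (4.56%). A30 differed at 11 (29.3%), 7 higher (12.9%) and 4 lower (16.3%), and B21 at 7 (16%), 5 higher (8.82%) and 2 lower (7.2%). Among the controls, N8 differed from the parental cells at 10 members (14.7%), 7 higher (7.67%) and 3 lower (7.03%). N4 differed at 0 (0.547%) by limma, and 3 members had an unadjusted p under 0.05 (13.2%), with AURKA at −0.20 ± 0.081, HMMR at 0.22 ± 0.090 and MCM6 at −0.15 ± 0.065. The error here is that between cultures, and a second clone of any line was not measured.

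The number of members called depended on single arrays in 4 of these comparisons. In A10 it was 4 without replicate 2 of A10 and 3 without replicate 3 of A10. In A30 it was 7 without replicate 3 of A30. In B21 it was 3 without replicate 2 of B21 and 2 without replicate 3 of B21. In N8 it was 6, 5 and 6 when replicate 1, 2 or 3 of the parental cells was left out and 6 without replicate 3 of N8. With replicates 2 and 3 alone, the calls that ended were CCNE2 (limma adjusted p = 0.0511), CDT1 and MCM7 in A10, RRM2 (0.0537), CDT1 and SLBP (0.118) in A30, RRM1 (0.0549) and CDT1 in B21, and PCNA (0.132) and RRM1 (0.0581) in N8. With the parental cells as the only reference, A30 had 4 members called and B21 had 4. Early-response genes, which growth factors and serum induce quickly, also differed in these lines: 5 of 11 were higher in A30 (12.9% of all genes were) and 7 of 11 in B21 (8.82%), 0 were lower in either, 1 was lower in A10 and 1 higher in N8. Their part in the differences of the members was not tested.

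The MCM helicase is a ring of 6 different subunits (MCM2 to MCM7). MCM2, MCM4 and MCM7 passed as lower in A10, and MCM7 as higher in A30. MCM2 read 9.05, 8.93 and 8.90 in replicates 1 to 3 of the parental cells, 9.04, 9.01 and 9.07 in N4, and 9.22, 9.08 and 9.05 in N8. In the KO-labelled lines it read 8.59, 8.66 and 8.75 in A10, 8.97, 9.02 and 9.01 in A30, and 8.92, 9.0 and 8.94 in B21. All 3 arrays of A10 lay below every other array. Among the other lines the parental arrays overlapped each line, while N8 lay above A30 and B21, and N4 above B21. The difference of A10 from the wild-type lines was −0.37 ± 0.055 (limma adjusted p = 0.000478), a fold of 0.773. MCM4 was also lower in A10, at 10.10, 10.02 and 10.04 against 10.25 to 10.41 over the 9 wild-type arrays, by −0.26 ± 0.050 (limma adjusted p = 0.00325).

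MCM7 was lower in A10 and higher in A30. It read 9.52, 9.49 and 9.54 in A10, 9.94, 9.99 and 9.95 in A30, 9.67, 9.74 and 9.66 in B21, and 9.60 to 9.77 over the wild-type arrays. Arrays of A10 lay below and those of A30 above all wild-type arrays, while B21 lay inside their range. The differences were −0.15 ± 0.046 in A10 (limma adjusted p = 0.048) and 0.29 ± 0.046 in A30 (adjusted p = 0.000173). The A10 call was marginal and was lost without any 1 of the 18 arrays. MCM3, MCM5 and MCM6 passed in none of the 5 comparisons of a line with its reference. In A10 they also lay below 0, at −0.099 ± 0.049, −0.081 ± 0.065 and −0.060 ± 0.053. Whether the subunits moved together in A10 was not tested.

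CDT1 was lower in each KO-labelled line than in the shared wild-type lines. It read 8.53, 8.44 and 8.38 in the parental cells, 8.52, 8.51 and 8.49 in N4, and 8.63, 8.42 and 8.33 in N8. The KO-labelled lines gave 8.27, 8.23 and 8.24 in A10, 8.29, 8.35 and 8.13 in A30, and 8.19, 8.25 and 8.36 in B21. Only replicate 3 of N8 lay as low as the highest arrays of A30 and B21. The differences were −0.23 ± 0.066 in A10 (limma adjusted p = 0.0436), −0.22 ± 0.066 in A30 (0.0203) and −0.21 ± 0.066 in B21 (0.0426). All 3 calls ended in replicates 2 and 3 alone (differences of −0.19, −0.19 and −0.12) and against the parental cells alone. Leaving out 1 array ended the A10 call for 11 of 18 arrays, the B21 call for 12, and the A30 call for replicate 3 of A30. CDC6, which recruits CDT1 to origins, passed in none of the 5 comparisons.

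CDC45, the helicase activator, was higher in A30 and B21 and lower in N8. It read 8.22, 8.28 and 8.28 in the parental cells, 8.11, 8.21 and 8.27 in N4, and 7.96, 8.04 and 8.04 in N8. In the KO-labelled lines it read 8.16, 8.28 and 8.32 in A10, 8.44, 8.53 and 8.48 in A30, and 8.51, 8.38 and 8.43 in B21. A30 and B21 lay above all other arrays and N8 below all others. The differences were 0.33 ± 0.054 in A30 (limma adjusted p = 0.000246) and 0.28 ± 0.054 in B21 (0.00183), and N8 differed from the parental cells by −0.25 ± 0.066 (0.0193). GINS2, a subunit of the GINS complex, passed in none of the 5 comparisons, with replicate 1 of A10 at 8.42 against 8.75 and 8.88 in the other A10 arrays.

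The cyclins E and the E2F factors, which drive entry into S phase, differed one at a time. CCNE2, encoding cyclin E2, read 8.10, 8.01 and 8.23 in A10, against 7.65 to 8.12 in the wild-type arrays, which overlapped it through N8. The A10 difference was 0.28 ± 0.072 (limma adjusted p = 0.021). CCNE1 was higher in B21, at 8.31, 8.53 and 8.60 against 7.90 to 8.33, by 0.31 ± 0.10 (limma adjusted p = 0.0459), a call that ended for 14 of 18 arrays left out. In A10 CCNE1 read 7.99 in replicate 1 and 8.56 and 8.57 in the others, so the first array lay at the low end of the wild-type arrays and the others above them all. E2F1, an activator that also drives its own promoter, had the same split in A10, at 7.73 against 8.25 and 8.25. E2F1 was higher in N8 than in the parental cells, at 8.33, 8.31 and 8.44 against 7.95, 7.96 and 8.02, by 0.38 ± 0.105 (limma adjusted p = 0.0205). E2F8 was higher in A30, at 8.85, 8.85 and 8.98, by 0.26 ± 0.072 (limma adjusted p = 0.0127).

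Both subunits of ribonucleotide reductase, which makes deoxynucleotides, were called, in opposite directions in A30 and N8. RRM1, the large subunit, read 10.60, 10.66 and 10.74 in A30 and 10.62, 10.57 and 10.58 in B21, against 10.26 to 10.56 in the wild-type arrays. It was higher by 0.26 ± 0.050 in A30 (limma adjusted p = 9e-04) and 0.18 ± 0.050 in B21 (0.0199), and lower by −0.21 ± 0.062 in N8 than in the parental cells (0.0323). RRM2, the small subunit whose supply is tied to S phase, read 9.19, 9.23 and 9.27 in A30 and 9.68, 9.56 and 9.53 in N8, below and above the parental arrays (9.38, 9.34 and 9.32). It differed by −0.20 ± 0.053 in A30 (limma adjusted p = 0.00894) and by 0.24 ± 0.065 in N8 (0.0185).

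At the fork, PCNA, the sliding clamp, was higher in N8 than in the parental cells, at 11.12, 10.99 and 11.09 against 10.81, 10.84 and 10.91, by 0.21 ± 0.060 (limma adjusted p = 0.0235). DTL, which directs CDT1 to destruction on PCNA, was lower there, at 10.49, 10.27 and 10.22 against 10.57, 10.68 and 10.68, by −0.32 ± 0.071 (0.00698). CLSPN, the checkpoint adaptor claspin, was lower in B21, at 8.73, 8.83 and 8.86 against 8.95 to 9.15 in the wild-type arrays, by −0.24 ± 0.048 (limma adjusted p = 0.00307). None of these groups overlapped. SLBP was lower in A30 by −0.19 ± 0.067 (limma adjusted p = 0.0391), with arrays at 9.20, 9.33 and 9.41 that overlapped the wild-type range of 9.37 to 9.61. WDR76 differed among the KO-labelled lines and TIPIN, UNG, FEN1, TYMS and UHRF1 in none of these tests.

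Of the mitotic cyclins, CCNB2 differed most and CCNB1 in no line comparison. CCNB2, encoding cyclin B2, read 8.20, 8.06 and 8.16 in the parental cells, 7.98, 8.03 and 8.11 in N4, and 8.67, 8.67 and 8.66 in N8. In the KO-labelled lines it read 8.47, 8.67 and 8.66 in A10, 8.17, 8.05 and 8.20 in A30, and 8.17, 8.24 and 8.16 in B21. N8 and A10 lay above all arrays of the other 4 lines, across the genotype labels. N8 differed from the parental cells by 0.53 ± 0.070 (limma adjusted p = 0.000178), a fold of 1.44, and A10 from the wild-type lines, N8 among them, by 0.32 ± 0.058 (0.00233). CDK1, the kinase that both cyclins B activate, passed in none of the 5 comparisons.

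Among the other mitotic kinases, BUB1, of the spindle checkpoint, was high in N8 (9.53, 9.73 and 9.69) and B21 (9.5, 9.71 and 9.65), where the parental arrays read 9.16, 9.32 and 9.35. It differed by 0.37 ± 0.082 in N8 (limma adjusted p = 0.00629) and by 0.23 ± 0.067 in B21 (0.0281). PLK1, which acts from mitotic entry to exit, read 10.89, 10.95 and 11 in B21 against 10.59 to 10.87 in the wild-type arrays and was higher by 0.21 ± 0.060 (limma adjusted p = 0.0251). AURKB, of the chromosomal passenger complex, was higher in N8 by 0.27 ± 0.073 (limma adjusted p = 0.0182), at 10.09, 10.11 and 10.08 against 9.78, 9.83 and 9.85. AURKA (0.21 ± 0.066, limma adjusted p = 0.0247) and TTK, the checkpoint kinase MPS1 (0.19 ± 0.062, 0.0278), were higher in A30. There AURKA read 8.43, 8.35 and 8.38, and TTK 9.39, 9.48 and 9.63. Both overlapped the wild-type arrays, which ran from 7.95 to 8.38 and from 9.19 to 9.44.

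At the kinetochore, CENPA, the histone variant that marks centromeres, read 7.85, 7.73 and 7.70 in the parental cells, 7.94, 8.01 and 8.17 in N8, and 7.50, 7.59 and 7.59 in A30. N8 lay above and A30 below the parental arrays, with no overlap. The arrays of N4, which is also part of the reference of A30, read 7.52, 7.68 and 7.69 and overlapped those of A30. The differences were 0.28 ± 0.073 for N8 (limma adjusted p = 0.0166) and −0.25 ± 0.060 for A30 against the wild-type lines (0.00443). NDC80 was higher in A30, at 8.46, 8.65 and 8.90 against 8.16 to 8.55 in the wild-type arrays, which overlapped it. The difference was 0.34 ± 0.088 (limma adjusted p = 0.00744), and this call ended without replicate 3 of A30. KIF23 was higher in A10, at 10.22, 10.42 and 10.35 against 9.88 to 10.29, by 0.27 ± 0.066 (limma adjusted p = 0.0172). KIF11, KIF20B, KIF2C, TOP2A, MKI67, BUB1B, BIRC5, CDC20, CDCA3, CDCA8 and HMMR passed in none of the 5 comparisons of a line with its reference.

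Most calls in single lines went with shifts of neighbouring genes on the chromosome. For each member the median difference of up to 40 nearest tested genes, 20 on each side in the RefSeq order, was set beside its own. Of 35 calls in the comparisons of a line with its reference, 34 had the sign of the neighbour median, and in 22 that median was over 0.1 in size. Both counts were made for the members only, and whether they are particular to the members was not tested. When every line was centred on the running median of 41 genes and refitted, 8 of the 35 passed and 27 did not. In A10 3 of 7 calls stayed, where 33.2% of all calls did, in A30 3 of 11 (53.2%), in B21 2 of 7 (51.6%) and in N8 0 of 10 (29.1%). Another 4 members passed only after centring in A30 (MCM4, TYMS, UHRF1 and CLSPN) and 2 in B21 (TYMS and UHRF1).

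The calls of N8 were the ones that neighbours shared most. CCNB2, on chromosome 15, differed by 0.53 where the neighbour median was 0.26 and 37 of 40 neighbours had the same sign, and its centred difference was 0.24 (limma adjusted p = 0.0555). PCNA, on chromosome 20, differed by 0.21 beside a neighbour median of 0.28, and centring turned its sign (−0.063). E2F1, also on chromosome 20, differed by 0.38 with a neighbour median of 0.195. CENPA, on chromosome 2, differed by 0.28 with a median of 0.25 and 39 of 40 neighbours of the same sign. In A10 CCNB2 and KIF23, both on chromosome 15, had neighbour medians of 0.20 and 0.145. In A30 CDT1, on chromosome 16, had the same value as its neighbour median (−0.22), and the centred difference was −0.013. SLBP, on chromosome 4, differed there by −0.19 beside −0.26 for its neighbours, and by 0.008 after centring. In A10 and B21 the neighbours of CDT1 had a median of −0.048, and its centred differences of −0.16 in both did not pass (limma adjusted p = 0.224 and 0.157).

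A few calls stayed after neighbours were removed. The running median was subtracted as a fixed value per gene and line, so the standard errors and p values here leave out its own error. In A10 they were MCM2 (−0.27 ± 0.055 after centring, limma adjusted p = 0.0112), MCM4 (−0.23 ± 0.050, 0.0154) and CCNE2 (0.31 ± 0.072, 0.0232). MCM4 and CCNE2 both lie on chromosome 8, moved in opposite directions, and had neighbour medians of −0.035 and −0.025. In A30 they were MCM7 (0.16 ± 0.046, limma adjusted p = 0.0209), CDC45 (0.24 ± 0.054, 0.00471) and CENPA (−0.22 ± 0.060, 0.0151). In B21 they were CDC45 (0.18 ± 0.054, limma adjusted p = 0.0433) and CLSPN (−0.18 ± 0.048, 0.0282). UHRF1, on chromosome 19, passed in A30 (−0.24 ± 0.069) and B21 (−0.25 ± 0.069) only once the higher neighbours, with medians of 0.18 and 0.080, were removed (limma adjusted p = 0.0235 and 0.0266). What moved neighbouring genes together was not tested.

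**Figure D3:**
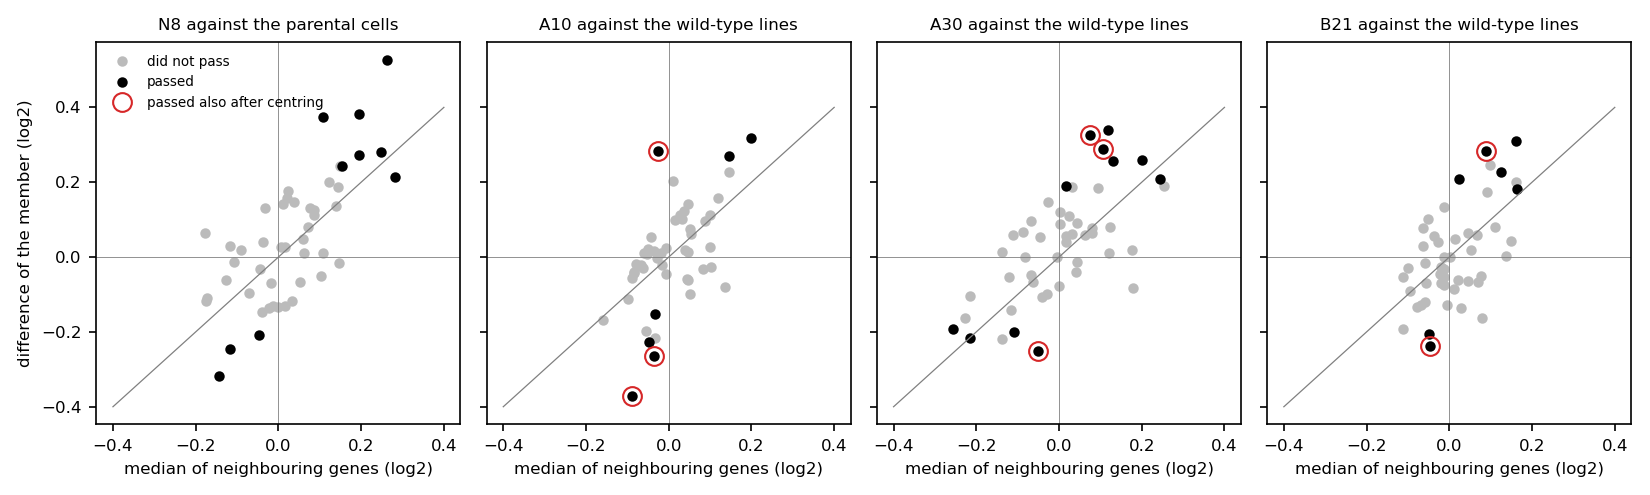
Difference of each member (vertical axis, log2) against the median difference of its neighbouring genes (horizontal axis, log2), in 4 comparisons of a line with its reference; black points passed, red circles passed also after centring on neighbours, and the diagonal marks equal values. In N8 all 10 black points lie on the same side of 0 as their neighbours and none is circled.

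Across replicate numbers, the members that passed were all lower in replicate 1. With the line as a term, replicate 1 against replicates 2 and 3 called 8 of 48 members (16.7%), all lower. They were 5 of 22 of mitosis (22.7%) and 3 of 26 of S phase (11.5%). Of all genes 18.6% passed, 9.81% lower and 8.74% higher. This contrast was taken up because replicate 1 was already known to differ, so the counts describe that pattern in the members. The mitosis members had a median difference of −0.057, with 19 of 22 below 0, the S-phase members −0.006 and all genes −0.011. The labels do not say what the replicate numbers stand for.

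CDC20, the activator of the anaphase-promoting complex, read 9.84, 10.08 and 10.03 in the parental cells, 10.00, 10.21 and 10.23 in N4, and 9.92, 10.10 and 10.01 in N8. It read 9.90, 10.14 and 10.17 in A10, 9.86, 10.10 and 9.98 in A30, and 10.06, 10.16 and 10.15 in B21. Replicate 1 was the lowest array in all 6 lines, and the contrast was −0.18 ± 0.034 (limma adjusted p = 0.00286). BIRC5, survivin of the chromosomal passenger complex, read 8.90, 9.04 and 9.07 in the parental cells, 9.0, 9.23 and 9.12 in N4, and 8.98, 9.38 and 9.38 in N8. In A10 it read 8.95, 9.13 and 9.15, in A30 9.11, 9.27 and 9.32, and in B21 9.18, 9.31 and 9.28. Here too replicate 1 was lowest in each line, and the contrast was −0.20 ± 0.039 (limma adjusted p = 0.00337).

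CCNB1, encoding cyclin B1, differed by −0.18 ± 0.041 (limma adjusted p = 0.00787), from −0.010 in A30 to −0.315 in N8. CDCA8, borealin of the passenger complex, differed by −0.14 ± 0.034 (0.00986), from −0.050 in the parental cells to −0.205 in B21. KIF23 differed by −0.12 ± 0.036 (0.0296), from −0.055 in A30 to −0.245 in N8. Of the S-phase members, E2F8 differed by −0.14 ± 0.038 (limma adjusted p = 0.0193), CCNE1 by −0.195 ± 0.061 (0.0373) and GINS2 by −0.15 ± 0.048 (0.0391). For CCNE1 and GINS2 the largest difference was in A10, at −0.575 and −0.395, and without replicate 1 of A10 both calls ended (limma adjusted p = 0.0977 and 0.118), at −0.12 and −0.105. Both also ended without several other single arrays. The KIF23 call ended there too, at −0.115 (0.0633), and also without replicate 1 of N4 or N8, replicate 3 of N8, replicate 2 of A10 or replicate 3 of B21. The E2F8 call ended without replicate 1 of N4 or of B21. Replicate 1 lay below the mean of the others in all 6 lines for 6 of 22 mitosis members (27.3%) and 5 of 26 S-phase members (19.2%), against 9.23% of all genes. It lay above in all 6 lines for 0 members, against 8.13% of all genes.

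**Figure D4:**
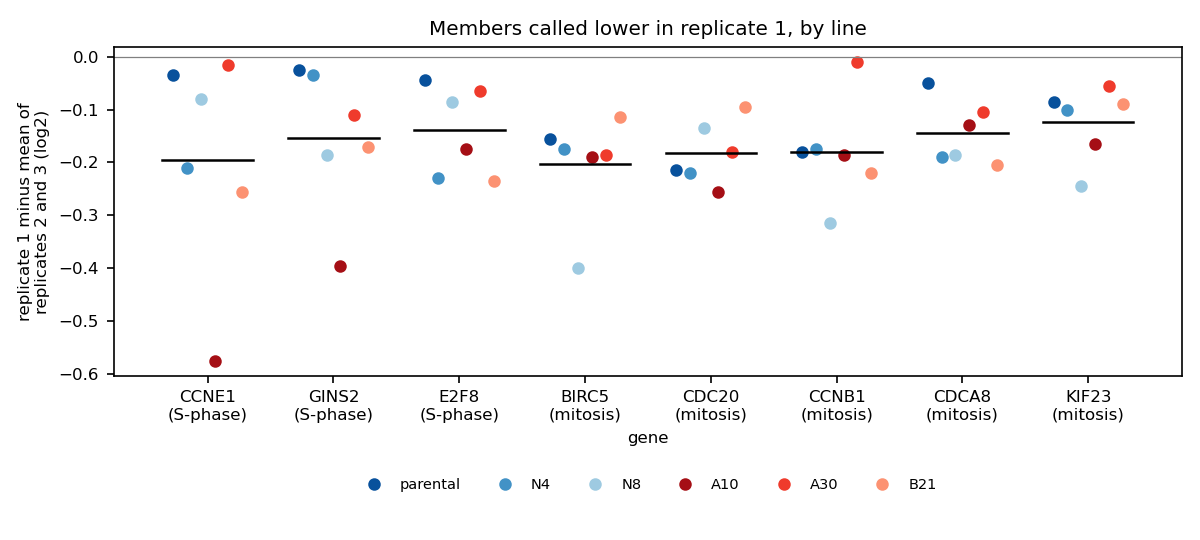
Replicate 1 minus the mean of replicates 2 and 3 (log2) in each of the 6 lines (points, blue for wild-type and red for KO-labelled lines; bars, mean of the lines) for the 8 members that passed. All points lie below 0, and A10 lies far below the other lines for CCNE1 (−0.575) and GINS2 (−0.395).

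Of the pairs of replicate numbers, those with replicate 1 had calls. Replicate 1 against 2 called 3 mitosis and 0 S-phase members (14.4% of all genes), and replicate 1 against 3 called 5 and 1 (11.4%). Replicate 2 against 3 called 0 members and 0 of all genes with limma (at an unadjusted p under 0.05, 1 S-phase and 0 mitosis members and 7.5% of genes). The mitosis members had a median difference of −0.042 for 1 minus 2, −0.072 for 1 minus 3 and −0.034 for 2 minus 3. In the same order the S-phase members had −0.002, −0.022 and −0.018, and all genes 0, −0.018 and −0.025. Within the wild-type lines 1 member passed, CCNB1 (6.83% of all genes), and within the KO-labelled lines 0 members and 0 genes (at an unadjusted p under 0.05, 3 S-phase and 3 mitosis members and 18.1% of genes). The median difference of the mitosis members was −0.070 within the wild-type and −0.072 within the KO-labelled lines, and that of the S-phase members was 0.014 and −0.035, against −0.008 and −0.010 for all genes. The replicate 1 difference itself did not differ between the genotypes at any member (0 of 48 and 0 of 9686 genes with limma; at an unadjusted p under 0.05, 0 members and 5.29% of genes). In that difference (KO-labelled minus wild-type) 21 of 26 S-phase members lay below 0, with a median of −0.083, against 0.012 for the mitosis members and −0.002 for all genes. The replicate 1 shift of the S-phase mean was 0.004, −0.026 and 0.049 in the parental, N4 and N8 cells. It was −0.087, −0.060 and −0.032 in A10, A30 and B21. N4 and B21 lay close together, and how often other sets of genes separate in this way was not counted. The A10 value rests in part on CCNE1, E2F1 and GINS2, where replicate 1 of A10 stood apart. Whether the S-phase set as a whole differed was not tested. The count of 8 became 5 without replicate 1 of N4, N8, A10 or B21, and also without replicate 2 of A10 or replicate 3 of B21. The early-response genes were lower in replicate 1 at 8 of 11 (9.81% of all genes were), among them EGR1 (−1.10 ± 0.18), FOS (−0.53 ± 0.099), FOSB (−0.35 ± 0.057) and IER3 (−0.32 ± 0.054). Their part in the difference of the mitosis members was not tested.

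The mean over the mitosis members, relative to its 18-array mean, was −0.055 ± 0.041 (log2, SD, n = 3 arrays) for the parental line, −0.059 ± 0.029 for N4 and 0.050 ± 0.063 for N8. It was 0.013 ± 0.036 in A10, 0.029 ± 0.052 in A30 and 0.024 ± 0.046 in B21. The parental cells and N4 were lowest, and N8 lay with the KO-labelled lines, whose arrays overlapped. The S-phase mean ran from −0.033 ± 0.015 in N4 to 0.026 ± 0.038 in A30. The arrays of N4 (−0.050, −0.028 and −0.020) lay below those of A30 (−0.013, 0.031 and 0.062), while those of A10 and B21 spanned parts of both. The S-phase mean minus the mitosis mean was 0.078 ± 0.042 in the parental cells and 0.027 ± 0.016 in N4, above 0 in all 6 arrays. It was −0.026 ± 0.091 for N8, −0.028 ± 0.017 for A10, −0.002 ± 0.027 for A30 and −0.048 ± 0.026 for B21. The arrays of N8 were split, at 0.079, −0.082 and −0.076. With medians over members in place of means, N8 and A10 turned to 0.073 and 0.054 and A30 moved to −0.144. Replicate 1 of the mitosis mean lay below the mean of the others in all 6 lines, by −0.068 ± 0.023 (SD, n = 6 lines), and that of the S-phase mean in 4 of 6, by −0.025 ± 0.048.

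**Figure D5:**
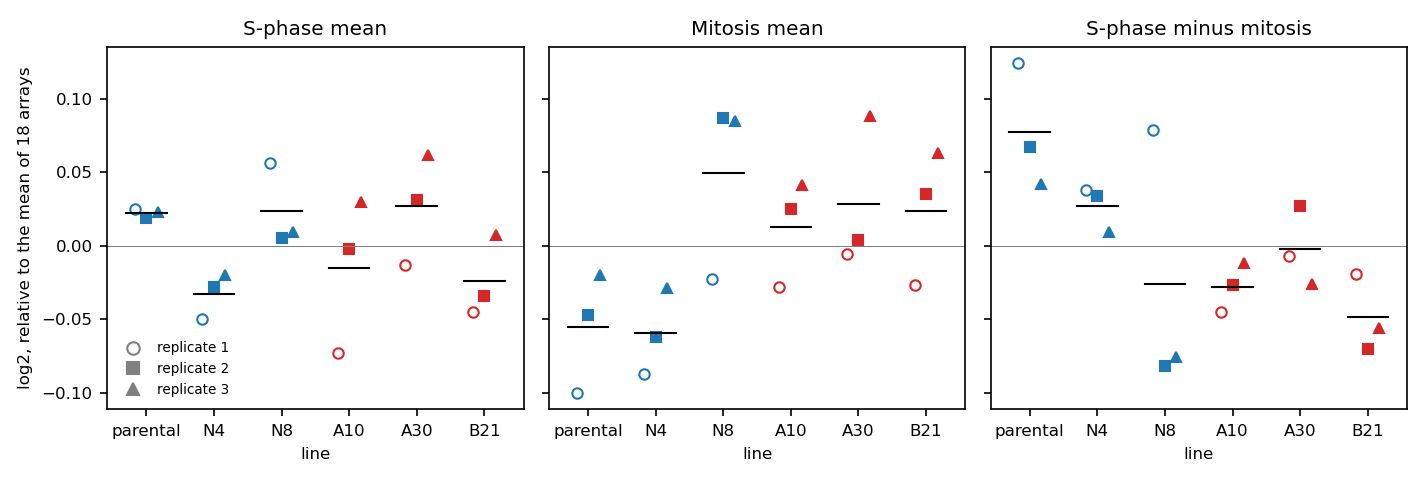
Mean over the S-phase members, mean over the mitosis members and their difference (log2, relative to the mean of the 18 arrays) for each array, by line; circles, squares and triangles are replicates 1, 2 and 3, bars are line means, and blue and red are wild-type and KO-labelled lines. Replicate 1 is the lowest array of every line in the mitosis mean, while the S-phase mean shows no such order in the parental cells and N8.

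Correlations between members of a set were low. Over the 18 arrays the median Pearson r between pairs was 0.21 for mitosis members (231 pairs), 0.014 for S-phase members (325 pairs), 0.008 between the sets and 0.003 over all pairs of tested genes. With the line means removed the medians were 0.21, 0.12, 0.050 and 0.017. These arrays share lines and replicate numbers, so the values are descriptions. BUB1 (r = 0.767), BIRC5 (0.761) and KIF23 (0.757) followed the mean of the other mitosis members most closely, while HMMR (−0.413) and KIF2C (−0.344) ran against it. The S-phase and mitosis means correlated at r = 0.334 over the 18 arrays. Outside the lists, among 9518 genes, those closest to the mitosis mean were NUDCD1 (r = 0.921), TRMT6 (0.915), TERF1 (0.902), ANXA7 (0.897) and ZNF512B (0.895). Those closest to the S-phase mean were MAD2L2 (0.783), CENPT (0.781), SDE2 (0.743), PFDN5 (0.739) and DCAF11 (0.736).

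Other genes of the same pathways, from lists that the members were not part of, also differed line by line. Of these lists, 17 of 53 replication genes and 61 of 73 mitosis genes had a symbol and passed the filter, and the others were not measured. Their counts stand beside the 8.4% of all genes that passed in A10, 29.3% in A30, 16% in B21 and 14.7% in N8. Of 17 other replication genes, 2 passed in A10, both lower (MCM10, −0.28 ± 0.059, and the nuclease EXO1, −0.27 ± 0.058). In A30 6 passed, 5 higher and 1 lower, with the DNA methyltransferase DNMT1 at 0.30 ± 0.055, and in B21 2, 1 in each direction. In N8 7 passed, 4 higher and 3 lower, with MCM10 at 0.41 ± 0.072. As shares of the 17 these were 11.8%, 35.3%, 11.8% and 41.2%. After centring on neighbours EXO1 in A10 still passed, while MCM10 in A10 (limma adjusted p = 0.197) and N8 (0.216) and DNMT1 in A30 (0.0565) did not. Of 61 other mitosis genes, 10 passed in A10 (7 higher, 3 lower), 25 in A30 (14 higher, 11 lower), 17 in B21 (11 higher, 6 lower) and 13 in N8 (6 higher, 7 lower), shares of 16.4%, 41%, 27.9% and 21.3%. In A30 SKA1, of the kinetochore, was higher by 0.72 ± 0.073 and CENPU lower by −0.55 ± 0.059, and the neighbours of CENPU had a median of −0.445. After centring SKA1 still passed (0.43, limma adjusted p = 0.000709) and CENPU did not (−0.017, 0.882). In replicate 1, where 18.6% of all genes passed, 11 of the 61 did, 8 of them lower, with CCNA2, encoding cyclin A2, at −0.27 ± 0.038, and 2 of 17 other replication genes passed, 1 in each direction.

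Of 21 measured G1 regulators, 6 passed in A10 (3 higher, 3 lower), 12 in A30 (2 higher, 10 lower), 9 in B21 (3 higher, 6 lower) and 6 in N8 (1 higher, 5 lower). These were shares of 28.6%, 57.1%, 42.9% and 28.6%, beside the same 8.4%, 29.3%, 16% and 14.7% of all genes. MYC, a growth regulator, was lower than in the wild-type lines in A30 (−1.70 ± 0.18), A10 (−0.95 ± 0.18) and also B21 (−0.70 ± 0.18), and lower in N8 than in the parental cells (−0.72 ± 0.22). After centring on neighbours the calls in A10 and A30 stayed, and those in B21 (−0.51, limma adjusted p = 0.0873) and N8 (−0.62, 0.118) did not. RB1, the retinoblastoma protein that restrains E2F, was lower in B21 by −0.59 ± 0.055 (limma adjusted p = 1.94e-06), with a neighbour median of −0.29 on chromosome 13 and a centred difference of −0.29 (adjusted p = 0.00223). In replicate 1, 2 of the 21 passed, 1 in each direction. N4 passed at 0 genes of these lists. The other replication, other mitosis, G1 and early-response lists passed at 0 genes between the genotypes with limma, and at 0, 6, 4 and 5 genes at an unadjusted p under 0.05.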

How the data were processed

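RNA of 18 cultures was extracted with a Qiagen kit and hybridised to Affymetrix arrays, per the labels' protocols. The deposited values are log2, 1 per probe set and array, and the authors used Affymetrix Expression Console for them, per the submitters' processing notes. The sources used here name neither its version nor its settings. The log2 scale was read from the values, and they were used as deposited, with no pseudocount.

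Of 53617 probe sets, 16098 carried 1 symbol in the platform annotation, for 14884 genes, and 779 genes had several. Genes above 5.6, the 40th percentile of named probe sets, on at least 3 arrays were tested. Tests used limma 3.58.1 in R 4.3.3, two-sided, with Benjamini-Hochberg adjustment over 9686 genes and a threshold of 0.05. Genotypes were compared on line means, and lines and replicate numbers on single arrays that shared 1 estimate of the spread. With 3 lines against 3, the number of lines limits the precision.

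The members, lists, motifs and the replicate 1 contrast were chosen with earlier results of these data known. Named were up to 6 members per set and direction that passed, 3 where none did, the widest and narrowest ranges, up to 4 genes per pathway list and the 5 genes most like each set; any other gene was picked with its values in view. Alternatives covered filter, normalisation, probe set, variance model, threshold, neighbours, reference, each array and each line. The fits were tested on simulated data. Of genes changed by 0.3 (log2), 20.3% were recovered between genotypes, 48.7% in A10 and 68.7% in replicate 1. Of genes changed by 1, 100%, 98.7% and 99.7% were recovered. The simulated lines differed by the same spread for every gene, and for A10 they did not differ apart from the added changes. Array noise was drawn independently, with no shared shift of replicate numbers or of neighbouring genes. Recovery in the real arrays can therefore be lower. Gene order and promoters came from RefSeq (GRCh38.p14). Plots used Python 3.11.15 and matplotlib 3.10.9.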

Additional observations from a re-analysis of the deposited data

Results flagged for a closer look

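Among the members, 15 differed among the 3 KO-labelled lines in limma's F test (adjusted p under 0.05), where 25.8% of all genes did. Their ranges of line means (log2) were 0.443 for MCM7, 0.42 for CCNE2, 0.333 for MCM2, 0.333 for CLSPN, 0.283 for MCM4, 0.28 for RRM2, 0.277 for WDR76, 0.237 for RRM1, 0.23 for CDC45 and 0.22 for PCNA in the S-phase set. In the mitosis set they were 0.46 for CCNB2, 0.333 for HMMR, 0.31 for CENPA, 0.257 for PLK1 and 0.257 for BUB1. Of 9 tests for a single far array, on the S-phase mean, the mitosis mean and their difference in each replicate number over the 6 lines, 0 passed Dixon's critical value for 6 values.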

How the results depend on the processing

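The count of 0 members between genotypes held in all alternatives run, and the N4 count of 0 likewise. The other counts moved by over 1.5 times as follows, and the cause was not tested. At an adjusted p under 0.01, A10 fell to 3, A30 to 6, B21 to 2, N8 to 3 and replicate 1 to 4. At 1.5-fold or more, 1 of 21 members stayed among the 6 lines (CCNB2) and 0 in A10, A30, B21, N8 and replicate 1. Centring on neighbours gave 10 among the 6 lines, 3 in A10, 7 in A30, 4 in B21 and 0 in N8, and moved the S-phase minus mitosis mean of B21 to −0.077. Without the filter, B21 had 3 and replicate 1 had 5. With the parental cells as the only reference, A30 and B21 had 4 each. The replicate 1 count was 5 in an F test over the numbers, 3 for 1 against 2, 0 for 2 against 3, 1 within the wild-type and 0 within the KO-labelled lines, and 4, 5, 4 and 4 without N4, N8, A10 and B21. With medians over members, the S-phase minus mitosis value was 0.049 in N4, 0.073 in N8, 0.054 in A10, −0.144 in A30, −0.077 in B21; the replicate 1 shift of mitosis −0.107. Leaving out 1 array, the counts ran from 18 to 26 among the lines, 3 to 8 in A10, 7 to 15 in A30, 2 to 7 in B21, 5 to 10 in N8 and 5 to 10 for replicate 1. Signs turned for CLSPN in N4 (−0.097 with the mean of probe sets, −0.015 with neighbour centring) and, with neighbour centring, for BUB1B (0.011) and CDCA8 (0.013) between genotypes, SLBP in A30 (0.008) and PCNA in N8 (−0.063). Between genotypes CENPA, BUB1B and CDCA8 turned without N8 (0.045, 0.004 and 0.003) and without A30 (0.020, 0.005 and 0.009). CDC20 (0.037) and BIRC5 (0.007) turned for replicate 2 against 3. Precision is limited by the number of arrays, and no detection flags were used.

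With the replicate number as a replicate block, 27 members passed among the 6 lines, 10 in A10, 16 in A30, 9 in B21, 0 in N4 and 11 in N8. Between genotypes, 0 passed with the line as a random block and the replicate block. Each of these counts was within 1.5 times the one without the block. Deviations of same-numbered arrays correlated above 0.1 in 39 of 45 pairs of lines and numbers, which leans towards shared numbers. The labels do not tie a number to a day or batch, and the block was kept as an alternative because not all 45 pairs passed 0.1. Of the 18 arrays, 15 correlated best with their own number, which is a hint from the data, not the design.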
